A study of Mus musculus with 30 samples.

Results

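The comparison described here is that of D6-deficient mouse skin 4 days after the last of 3 applications of the phorbol ester TPA with D6-deficient skin at day 0. It takes 6 of the 30 arrays of the series, 3 mice per group, chosen by genotype and day alone, and follows every gene with a measured probe set. All mice were female, 8 to 12 weeks old, on a mixed 129–C57BL/6 background, and whole shaved back skin was taken. The D6-deficient mice (D6 KO) lacked D6 (Ccbp2) from birth and in every tissue. In the day 4 group 50 µM TPA was painted on the back 3 times at 24 h intervals. The day 0 group received no TPA. Its titles call it untreated and its descriptions call it acetone treated. WT mice and D6-deficient mice at days 1, 2 and 6 gave the other arrays. Of these, the WT arrays of days 0 and 4 and the D6-deficient arrays of days 1, 2 and 6 are set beside the main comparison.

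Values are log2 intensities, so that 1 unit is a doubling of probe brightness, and they order samples within a gene but not genes against each other. A gene was called when its adjusted p in limma was under 0.05 and its change was over 3-fold (1.585 on the log2 scale). Array medians lay between 5.64 and 5.80. The deficiency was visible in 1 of 3 D6 probe sets, at 3.30 to 3.86 in 15 D6-deficient arrays and 4.15 to 5.76 in 15 WT arrays. The brightest D6 (Ccbp2) probe set read 7.99, 8.05 and 8.09 at day 0 and 7.70, 7.64 and 7.87 at day 4 in D6-deficient skin (difference -0.31, adjusted p = 0.34), and did not separate the genotypes. Keratinocyte, fibroblast, adipocyte and muscle transcripts were all bright at day 0, as in whole skin with its underlying muscle: Krt14 at 13.26 to 13.55, Dcn at 13.67 to 13.90, Adipoq at 13.70 to 13.75 and Acta1 at 14.35 to 14.47.

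Of the 6 arrays, 2 stood apart. Day 4 replicate 1 had an array quality weight of 0.356, against 1.567 and 1.384 for replicates 2 and 3. Day 0 replicate 3 already carried stress genes: Krt6b read 11.75 there and 9.42 and 8.21 in replicates 1 and 2, and S100a8 read 12.85 against 11.07 and 10.42. These genes set it apart and its weight did not, at 0.914 against 2.331 and 0.809 for replicates 1 and 2. Results that moved most without either array are given both ways.

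D6 is an atypical chemokine receptor. It binds most inflammatory CC chemokines, does not signal through G proteins, and carries its ligands into the cell for degradation. In skin it is known chiefly from lymphatic endothelium. TPA activates protein kinase C, which switches on the transcription factors AP-1 and NF-κB in keratinocytes, makes the epidermis thicken, and draws in leukocytes. Some CXC chemokines attract neutrophils, and many CC chemokines attract monocytes and lymphocytes. The epidermis answers injury by replacing the keratins and envelope proteins of normal terminal differentiation with a wound set.

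Promoters of 6 of the most strongly raised genes are shown because they hold the short motifs for which TPA-responsive transcription is known. Each is the 250 bases before the RefSeq start in GRCm38.p6, on the plus strand. Capitals mark matches to TGANTCA (the AP-1 or TPA response element), GGG, any 2 bases and TTTCC (NF-κB-like), or GAAA, any 2 bases and GAAA (interferon response element-like) on either strand.
Cxcl2, chr5:90903649-90903898: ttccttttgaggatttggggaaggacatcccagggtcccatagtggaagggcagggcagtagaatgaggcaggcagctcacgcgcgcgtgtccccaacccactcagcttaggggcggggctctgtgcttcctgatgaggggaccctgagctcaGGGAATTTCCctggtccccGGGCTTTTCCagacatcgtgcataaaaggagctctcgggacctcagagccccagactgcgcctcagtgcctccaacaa
Cxcl3, chr5:90785851-90786100: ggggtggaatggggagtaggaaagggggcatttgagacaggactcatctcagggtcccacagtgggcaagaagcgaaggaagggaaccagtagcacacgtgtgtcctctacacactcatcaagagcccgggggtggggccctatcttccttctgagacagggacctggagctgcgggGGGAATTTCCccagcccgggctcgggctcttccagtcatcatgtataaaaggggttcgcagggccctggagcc
Il6, chr5:30012864-30013113: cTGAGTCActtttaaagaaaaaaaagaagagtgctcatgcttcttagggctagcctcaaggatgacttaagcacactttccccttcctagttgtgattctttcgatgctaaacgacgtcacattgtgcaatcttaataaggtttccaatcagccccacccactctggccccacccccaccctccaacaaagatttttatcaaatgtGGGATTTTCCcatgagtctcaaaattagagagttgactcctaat
Mmp13, chr9:7272264-7272513: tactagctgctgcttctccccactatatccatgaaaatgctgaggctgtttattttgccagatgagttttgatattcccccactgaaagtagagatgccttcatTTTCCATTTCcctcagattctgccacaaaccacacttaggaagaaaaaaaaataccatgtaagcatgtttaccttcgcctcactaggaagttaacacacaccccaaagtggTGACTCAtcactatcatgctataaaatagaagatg
Sprr2f, chr3:92364937-92365186: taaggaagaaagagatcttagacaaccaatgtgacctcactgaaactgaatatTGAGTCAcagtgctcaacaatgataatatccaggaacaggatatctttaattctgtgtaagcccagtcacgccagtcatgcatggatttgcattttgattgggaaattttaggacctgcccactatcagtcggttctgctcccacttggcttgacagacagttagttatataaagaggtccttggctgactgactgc
Sprr2i, chr3:92407741-92407990: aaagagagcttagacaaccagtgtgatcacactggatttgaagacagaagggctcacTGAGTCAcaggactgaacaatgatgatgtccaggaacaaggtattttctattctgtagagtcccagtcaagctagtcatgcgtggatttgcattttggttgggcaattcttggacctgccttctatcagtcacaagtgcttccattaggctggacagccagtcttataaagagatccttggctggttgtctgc

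The 2 Sprr2 promoters carried TGAGTCA at nearly the same distance, with its first base at -197 in Sprr2f and -193 in Sprr2i, and Mmp13 carried TGACTCA at -35. The chemokine promoters held the NF-κB-like letters near the start, at -97 and -78 in Cxcl2 and -73 in Cxcl3, and Il6 held them at -44 with a TPA response element at -249. The motifs overlapped no other of these motifs in the 6 windows. TGANTCA was present in 7.82% of the 27025 genes with such a window, in 15.9% of the 333 genes called higher at day 4 that could be matched, and in 8.65% of the 347 called lower. The NF-κB-like motif was in 1.65%, 5.11% and 2.59% of these sets, and the interferon response element-like motif in 3.46%, 7.21% and 2.31%. Among all 32851 windows of this length the shares were 6.75%, 1.41% and 2.98%. The 27025 genes are all those with a window, tested on the arrays or not, while the called genes come from the genes tested. The sets are thus not alike. These are descriptions of letters in a window, with no test, and they show no binding.

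At day 4, D6-deficient skin differed from day 0 in 933 of 17772 genes tested (5.25%). Of these, 445 were higher (2.5% of the genes tested) and 488 were lower (2.75%). Over all 36029 probe sets, 711 were called higher (1.97%) and 734 lower (2.04%). Without the fold threshold, 3511 genes (19.8%) rose and 4179 (23.5%) fell at an adjusted p under 0.05. The day 4 and day 0 arrays did not overlap in 445 of the genes called higher and 486 of those called lower, while over all genes tested 25.3% lay wholly higher and 28% wholly lower at day 4. The median change over all genes was 0.01. The counts of the gene lists below are to be read beside these shares. With 3 mice per group an exact permutation test of a single gene cannot go below p = 0.1, so that all tests of single genes here are limma's, in which 30 arrays share the estimate of spread.

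The largest measured rise was that of Cxcl5 (chr5:90759298-90761625), a neutrophil-attracting chemokine. It read 3.42, 3.13 and 3.25 at day 0, near the dim end of the scale, and 11.99, 12.12 and 11.92 at day 4, a change of 8.75 ± 0.36 (SE, n = 3 per group, adjusted p = 8.9e-14) on the log2 scale. The 3 mice of each day agreed closely and the groups were far apart. All 3 day 0 readings of Cxcl5, 2 of the 3 of Cxcl3, Ccl3 and Csf3, and 1 of Ppbp lay under 3.72, the mean level below which probe sets were left out of the tests, so no linear fold is given for them and the log2 changes may understate the true ones. The same holds for falls that ended there, as in all 3 day 4 mice for Skint10 and C130079G13Rik. The 14 genes that followed changed by 5.92 to 7.59. They held 5 members of the envelope protein families of stressed or psoriasis-like epidermis (Lce3a, Lce3c, Sprr2i, Sprr2f and Sprr2j-ps, the last named as a pseudogene). The others were the chemokines Cxcl3 and Ppbp, the cytokine Il6, the collagenase Mmp13, the defensin Defb3, the protease inhibitor Slpi, the acute-phase protein Saa1, the heme-binding plasma protein Hpx and urate oxidase, Uox. Hpx read 4.51, 5.02 and 4.49 at day 0 and 12.82, 11.32 and 11.54 at day 4. Day 0 replicate 3 was the highest of its group in Lce3a, Sprr2i, Sprr2f, Cxcl3, Mmp13, Uox, Defb3, Saa1 and Sprr2j-ps.

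The largest fall was that of the cytochrome P450 gene Cyp2g1, at 12.12, 9.80 and 11.69 at day 0 and 4.35, 4.40 and 4.35 at day 4 (-6.84 ± 0.55, adjusted p = 8.3e-10). The type II keratin Krt77 read 13.79, 13.85 and 13.74 and then 5.38, 9.08 and 6.65 (-6.76 ± 1.00). Its 3 day 0 mice were alike and its 3 day 4 mice were spread over more than 3 units, although none came near day 0. The ethanol-inducible P450 Cyp2e1 went from 13.04, 12.92 and 13.42 to 5.34, 7.67 and 7.47 (-6.30 ± 0.61), again lowest in day 4 replicate 1. The other genes with falls of this size, from -4.73 to -6.69, were the suprabasal keratin Krt10, the late envelope protein Lce1m, the metallothionein of stratified epithelium Mt4, the lipid enzymes Far2, Scd3 and Fa2h, the carnitine synthesis enzyme Bbox1, the serpin Serpina12, and Skint10, Dapl1, Gprin2 and Tmem45b. Without day 4 replicate 1 the changes of Krt77 and Cyp2e1 were -5.93 and -5.56, and without replicate 2 that of Krt77 was -7.78.

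**Figure D1:**
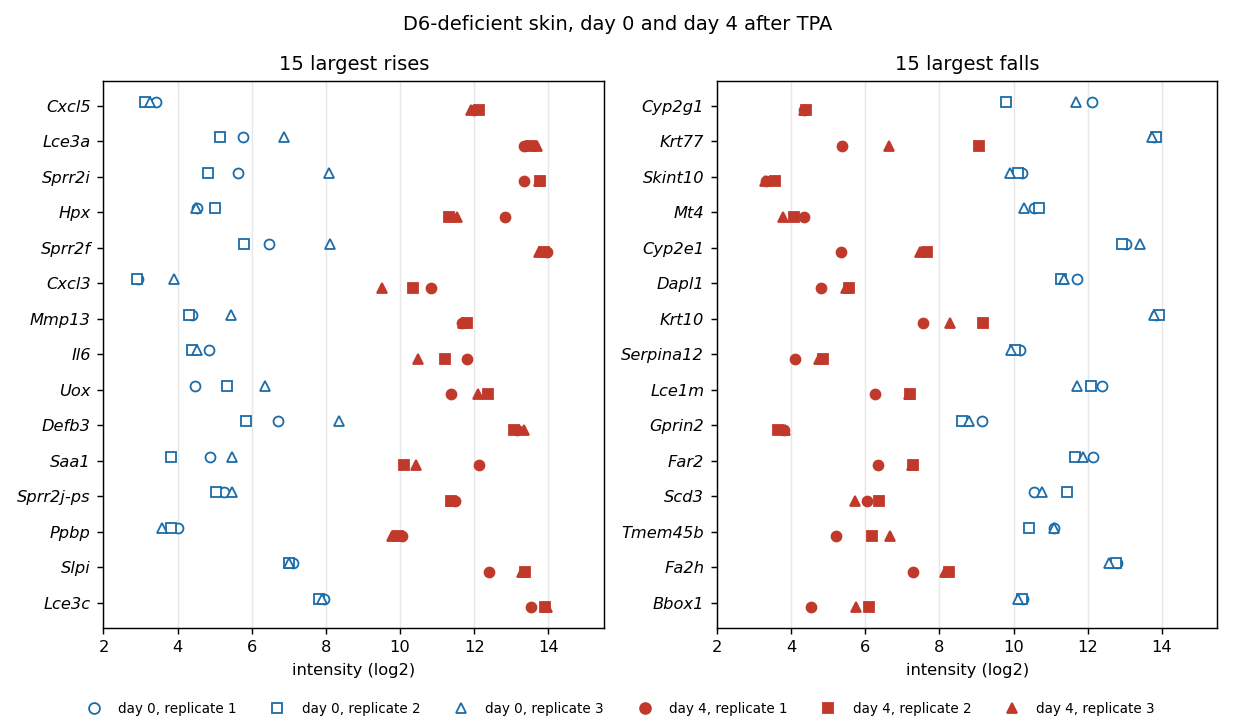
Log2 intensity of the 15 genes with the largest rise and the 15 with the largest fall among called genes without overlap, 1 point per array, day 0 open and day 4 filled, with shapes for replicates 1 to 3. Every gene has its day 4 points on a single side of its day 0 points, from Cxcl5 with a change of 8.75 to Cyp2g1 with a change of -6.84.

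Of 7 measured genes of neutrophil-attracting chemokines (6 ligands, and the receptor Cxcr2), 6 were called higher and none lower, and their median change was 5.89. Cxcl3 (chr5:90786101-90788093) read 2.93, 2.90 and 3.89 at day 0 and 10.84, 10.36 and 9.52 at day 4 (7.0 ± 0.53, adjusted p = 3.2e-10). Cxcl2 (chr5:90903899-90905938) read 4.38, 4.18 and 5.21 and then 10.58, 10.91 and 9.95 (5.89 ± 0.66, adjusted p = 1.4e-07). Ppbp, the precursor of a platelet and macrophage chemokine, read 4.01, 3.82 and 3.57 and then 10.06, 9.94 and 9.78 (6.13 ± 0.27). These 3 genes and Cxcl5 lie in a single stretch of chromosome 5, and all were raised in every mouse. Cxcl1 rose by 5.19 and Cxcr2 by 4.14. Cxcl15, a chemokine of lung epithelium, differed by -0.06 (adjusted p = 0.73).

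Of the 11 inflammatory CC chemokines that D6 can bind, 8 were called higher, 9 passed the test, and none fell. The neutrophil and macrophage product Ccl3 read 3.28, 3.50 and 3.87 at day 0 and 8.13, 9.68 and 9.05 at day 4 (5.40 ± 0.44, adjusted p = 1.2e-09). Ccl4 rose by 4.48, and the monocyte attractants Ccl7, Ccl2 and Ccl12 rose by 4.05, 3.70 and 2.43. Ccl2 read 7.49, 7.57 and 6.82 and then 10.78, 11.24 and 10.96. The T-cell attractant Ccl22 rose by 2.90, Ccl24, an eosinophil attractant, by 2.74, and Ccl5 by 1.65. Ccl8 rose by 1.01 without reaching 3-fold, while Ccl11 (0.46, adjusted p = 0.34) and Ccl17 (0.78, 0.13) did not pass the test. The list's median change was 2.74. Ccl20, the attractant of Ccr6-bearing cells, overlapped between the days at 7.14, 6.76 and 7.40 against 6.62, 6.98 and 6.83 (-0.29, adjusted p = 0.56).

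Among 13 chemokine receptors, 4 were called higher and none lower, Ccr7, Ccr1 and Cxcr4 among them. The dendritic and naive T-cell receptor Ccr7 had the largest rise, from 5.12, 4.91 and 5.19 to 9.11, 8.29 and 9.05 (3.75 ± 0.22, adjusted p = 6.8e-12). Ccr1, carried by myeloid cells, rose by 3.13 and Cxcr4 by 1.91. Cxcr6 (0.99), Ccr3 (0.79) and Cxcr3 (0.77) rose by less than 3-fold. The monocyte receptor Ccr2 differed by 0.11 (adjusted p = 0.72), and Ccr6 and Cx3cr1 by -0.46 and -0.42 (adjusted p = 0.25 and 0.056).

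Of 27 epidermal and inflammatory cytokines, 10 were called higher and none lower, 18 rose and 2 fell by the test alone, and the median change was 0.81. Il6 rose from 4.84, 4.40 and 4.52 to 11.80, 11.22 and 10.47 (6.58 ± 0.39, adjusted p = 8.2e-12, 95.5-fold). Csf3, the growth factor for neutrophils, rose from 3.71, 3.81 and 3.53 to 9.81, 9.51 and 9.24 (5.83 ± 0.26, adjusted p = 1.0e-13). Il1b, the product of activated myeloid cells, rose from 7.48, 7.51 and 7.59 to 11.88, 12.26 and 11.79 (4.45 ± 0.32). In all 3 genes the mice of each day lay close together. Il24 (4.25), Osm (2.96), the keratinocyte cytokine Il1f9 (2.95), Tslp (2.85), Il33 (2.40), Il17a (2.27) and the receptor antagonist Il1rn (1.95) were also called higher. Il17a was uneven, at 8.01 in day 4 replicate 1 and 5.49 and 6.32 in the other day 4 mice, against 4.19 to 4.57 at day 0. Without that replicate its change was 1.56 (adjusted p = 0.0011), below 3-fold. Tnf rose by only 0.52 (adjusted p = 0.0023), Il10 by 1.30 and Csf2 by 1.11. Il18, which resting keratinocytes store, fell by 1.21, and Il20 fell by 1.01. Il4 (0.33), Il13 (0.34) and Il12b (0.22) did not pass the test. The list's median was 1.29 without day 4 replicate 1.

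Genes of neutrophils had the largest median change of the 6 leukocyte lists. In a list of 23 granule and surface genes 17 were called higher, none lower, and the median change was 4.03. The collagenase Mmp8 read 4.37, 4.32 and 4.76 at day 0 and 10.29, 10.09 and 9.72 at day 4 (5.55 ± 0.39, adjusted p = 1.1e-10). The C-type lectins Clec4e and Clec4d rose by 5.67 and 5.46, the chitinase-like protein Chi3l3 by 5.61, Cd177 by 5.11, the formyl peptide receptors Fpr1 and Fpr2 by 5.01 and 4.86, and Csf3r by 4.52. The azurophil granule genes of marrow precursors, Mpo, Elane, Prtn3 and Ctsg, differed by -0.28 to 0.11, and none passed the test. The granule genes Ngp and Ltf were uneven: Ngp read 10.77 in day 4 replicate 1 and 8.56 and 8.34 in the others, and Ltf 7.84 against 4.53 and 5.19. The list's median level against the day 0 mean was -0.15 to 0.06 at day 0 and 3.58 to 4.03 at day 4. In whole skin fewer cells of a type and less RNA per cell cannot be told apart, nor can more cells and more RNA. The part of incoming neutrophils in the rises of Il1b, Ccl3, S100a8 and other genes that they express was not tested.

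More macrophage and monocyte genes rose than fell. Of 24 measured, 4 were called higher and 1 lower, with 12 rising and 5 falling by the test alone and a median of 0.44. Over all genes tested 2.5% were called higher and 2.75% lower, and 19.8% rose and 23.5% fell by the test alone. The share of macrophage genes that fell was thus near that of all genes. The endotoxin co-receptor Cd14 went from 8.63, 9.0 and 8.89 to 11.08, 11.68 and 11.28 (2.51 ± 0.32, adjusted p = 8.3e-07). The scavenger receptor Msr1 rose by 2.04, the Fc receptor Fcgr1 by 1.83, the integrin Itgam by 1.79 and Cd68 by 1.49. The resident macrophage lectins Mgl2 and Clec10a fell by 1.71 and 1.23, and Emr1, Csf1r and Lyz2 fell by 0.92, 0.97 and 0.82. Without day 4 replicate 1 the counts called were 5 higher and none lower, and without day 0 replicate 2 they were 4 and none.

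Dendritic and antigen presentation genes moved both ways. In the list of 18 dendritic, Langerhans and MHC class II genes 10 fell and 6 rose by the test alone, although only Ccl22 was called, and the median was -0.64. H2-Eb1 and H2-DMa fell by 1.14, H2-Ab1 by 0.93, H2-Aa by 0.85 and the invariant chain Cd74 by 0.76. Cd207, which marks Langerhans cells, read 9.12, 9.35 and 8.94 at day 0 and 8.11, 7.82 and 8.02 at day 4 (-1.15 ± 0.39, adjusted p = 0.02), and missed the threshold without day 4 replicate 2 (adjusted p = 0.066) or day 0 replicate 2 (0.068). Against this, the costimulatory molecules Cd80 (1.41) and Cd86 (0.72) and the plasmacytoid marker Siglech (1.41) rose. Leaving out day 4 replicate 1 gave 2 called higher, and leaving out day 0 replicate 3 as well gave 3.

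T-cell and NK genes had a median change of 0.66 over 31 genes. Over all genes tested 19.8% rose and 23.5% fell by the test alone, and 2.5% were called higher and 2.75% lower. By the test alone 16 rose and 1 fell, and 3 were called higher and 1 lower. The called genes were effector genes: Gzmb rose from 6.41, 5.70 and 5.80 to 9.24, 9.40 and 9.81 (3.51 ± 0.32, adjusted p = 4.6e-09), Gzma by 2.17 and the lymphotoxin gene Ltb by 1.80. Icos (1.47), Ctla4 (1.46), Lck (1.25) and Cd3d (0.99) rose by less than 3-fold. Cd3e was level, at 6.70, 7.18 and 7.15 and then 6.71, 6.89 and 7.14 (-0.10, adjusted p = 0.61), and Cd3g differed by -0.02 (0.96), Cd4 by 0.17 (0.30) and Cd8a by 0.28 (0.25). H60c, a stress ligand of keratinocytes read by the NKG2D receptor, fell by 2.46. The T-cell defining transcripts thus did not move together, with Lck higher and Cd3e and Cd3g within their spread.

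Of 8 B-cell genes none was called, and 1, Cd79b, rose by the test alone (0.51, adjusted p = 0.017). That call was lost without day 4 replicate 2, day 4 replicate 3 or day 0 replicate 3 (adjusted p = 0.054, 0.075 and 0.069). Of 10 mast cell genes only the Fc receptor chain Fcer1a (3.38) and the tryptase Tpsab1 (1.92) were called higher. The mast cell proteases Cpa3, Mcpt4 and Cma1 differed by -0.22, 0.01 and -0.08, and none passed the test. Fcer1a read 3.75, 3.98 and 3.91 at day 0 and 6.41, 7.5 and 7.89 at day 4.

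Of 40 measured interferon-induced genes 27 rose, none fell, and 8 were called higher, with a median of 0.92. The interferon γ-induced chemokine Cxcl9 led with a change from 8.05, 7.96 and 8.46 to 11.57, 12.69 and 12.19 (4.00 ± 0.40, adjusted p = 3.2e-08). The nucleic acid sensor Zbp1 (2.11), the GTPase Iigp1 (2.04), Oasl1 (1.88), Oas3 (1.69), Bst2 (1.66) and Ifi204 (1.60) were also called higher. Irf7 rose by 1.05 (adjusted p = 0.0011). The antiviral genes Mx1 (-0.21, adjusted p = 0.52), Ifit2 (0.14, 0.62), Ifi44 (-0.02, 0.98) and Usp18 (0.31, 0.39) and the chemokine Cxcl10 (0.50, 0.094) did not pass the test. Ifit1 rose by 1.15 (adjusted p = 0.012), but missed the threshold without day 4 replicate 1 (0.073) or day 0 replicate 2 (0.068). Of the interferons and their receptors, Ifnb1 stayed dim at 3.72 to 3.87 on all 6 arrays. Ifnar2 (1.27), Ifngr2 (0.85), Ifnar1 (0.71) and Ifngr1 (0.39) rose, none by 3-fold.

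Genes of epithelial defence and wounding rose steeply in whole skin. Of 15 antimicrobial proteins 12 were called higher and none lower, with a median of 3.48. Neutrophils also carry S100a8, S100a9, Lcn2, Slpi and Pglyrp1, and their part in these rises was not tested. Defb3 went from 6.72, 5.84 and 8.36 to 13.16, 13.08 and 13.33 (6.22 ± 0.55, adjusted p = 4.0e-09), Slpi from 7.12, 7.01 and 7.01 to 12.39, 13.38 and 13.30 (5.97 ± 0.35), and Pglyrp1, which binds bacterial cell walls, rose by 5.18. The iron-scavenging lipocalin Lcn2 rose by 5.04 and Saa3 by 5.01. The calprotectin subunits S100a8 and S100a9 rose by 2.98 and 3.59, from levels that were already high at day 0. S100a9 read 10.71, 9.95 and 12.85 at day 0 and 14.75, 14.79 and 14.75 at day 4, near the highest value of 14.98 in the whole table. Without day 0 replicate 3 the rises of S100a8, S100a9 and Defb3 were 3.68, 4.43 and 6.91, and without day 0 replicate 2 that of S100a9 was 2.99.

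All 4 stress keratins were called higher. Krt6b read 9.42, 8.21 and 11.75 at day 0 and 13.97, 14.31 and 14.24 at day 4 (4.38 ± 0.79, adjusted p = 8.3e-05), Krt16 read 8.50, 7.78 and 9.49 and then 12.46, 13.04 and 13.01 (4.24 ± 0.54), and Krt6a and Krt17 rose by 3.72 and 1.74. The day 4 mice were alike and the day 0 mice were not, with replicate 3 highest in all 4 genes. Without that replicate the rise of Krt6b was 5.36, and without day 0 replicate 2 it was 3.59.

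Keratins of resting and differentiating epidermis went the other way. Of 11 measured 6 were called lower, 9 fell, and none rose, with a median of -1.62. The suprabasal partners Krt10 and Krt1 fell by 5.52 and 4.46: Krt10 read 13.83, 13.93 and 13.80 at day 0 and 7.55, 9.18 and 8.28 at day 4 (SE 0.42, adjusted p = 3.5e-10), and Krt1 12.49, 12.23 and 12.38 and then 6.29, 9.15 and 8.30 (SE 0.48, adjusted p = 9.1e-08). Krt15, a keratin of basal cells and the hair bulge, fell by 4.02, from 12.94, 12.76 and 12.80 to 8.63, 8.66 and 9.15. Krt78 and Krt79 fell by 2.79 and 1.62. Of the paired basal keratins, Krt5 fell by 1.15, from 12.94, 12.81 and 12.91 to 11.72, 11.60 and 11.89 (adjusted p = 3.9e-07), and Krt14 overlapped between the days (-0.13, adjusted p = 0.54). Day 4 replicate 1 was the lowest array for Krt1, Krt10, Krt77 and Krt14, and without it the fall of Krt1 was 3.64 and that of Krt14 became a difference of 0.05 (adjusted p = 0.85).

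The envelope proteins of the epidermal differentiation complex on chromosome 3 split in the same way. Among small proline-rich proteins, 8 of 9 were called higher with a median of 5.26. Sprr2i (chr3:92407991-92409271) read 5.64, 4.83 and 8.09 at day 0 and 13.33, 13.78 and 13.74 at day 4 (7.43 ± 0.67, adjusted p = 5.1e-09). Sprr2f (chr3:92365187-92366442), with the same promoter motif, read 6.46, 5.79 and 8.10 and then 13.97, 13.89 and 13.75 (7.09 ± 0.59). Without day 0 replicate 3 these rises were 8.38 and 7.75. Sprr2 genes are near-identical copies, so that a probe set may read several of them. Sprr3, an envelope protein of mucosa, differed by 0.29 (adjusted p = 0.43).

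All 4 measured Lce3 genes, whose human counterparts are known from psoriatic and wounded skin, were called higher, by 5.61 to 7.59. Lce3a (chr3:92925287-92926230) went from 5.77, 5.14 and 6.86 to 13.33, 13.52 and 13.68 (7.59 ± 0.54, adjusted p = 1.3e-10). The 11 measured Lce1 genes lay between -5.18 and 0.50, with 7 that fell and none that rose. Lce1m (chr3:93017807-93019061) fell by 5.18, from 12.39, 12.09 and 11.72 to 6.27, 7.21 and 7.18, and Lce1c by 1.59. Lce1c was no longer called without day 4 replicate 1 or day 0 replicate 1, when 1 Lce gene was called lower.

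Among 28 other envelope and barrier genes 3 were called higher and 4 lower, with 10 rising and 10 falling by the test alone and a median of -0.04, or 0.37 without day 4 replicate 1. Filaggrin, Flg (chr3:93273546-93293689), read 10.28, 9.5 and 10.16 at day 0 and 4.62, 6.01 and 6.13 at day 4 (-4.39 ± 0.51, adjusted p = 2.3e-07). Loricrin, Lor (chr3:92080271-92083142), read 13.89, 13.97 and 13.82 and then 7.76, 10.60 and 10.17 (-4.38 ± 0.47), and hornerin, Hrnr (chr3:93319749-93333572), fell by 2.42. The desmosomal cadherin Dsg1a fell by 2.82 and involucrin, Ivl, by 1.40. The kallikrein protease Klk6 (4.78), the hair and tongue protein Tchh (2.32) and the crosslinking enzyme Tgm1 (2.12) were called higher. Lor and Hrnr were lowest in day 4 replicate 1, and without it fell by 3.51 and 1.80. Without both that array and day 0 replicate 3 the counts were 5 called higher and 4 lower.

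**Figure D2:**
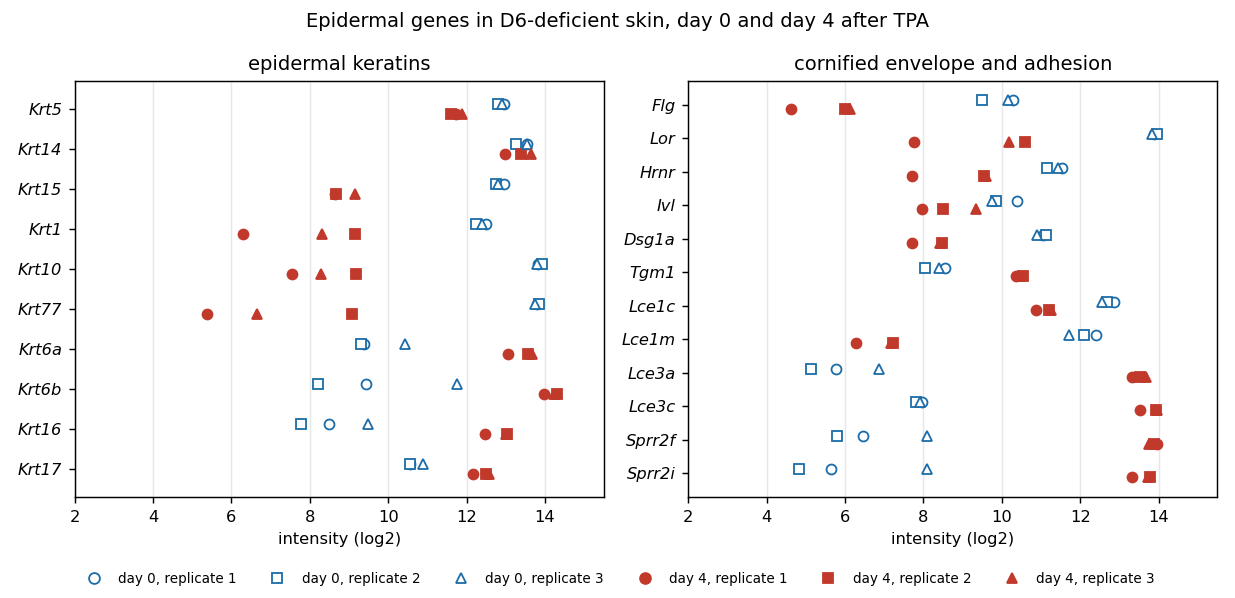
Log2 intensity of epidermal keratins, envelope proteins and a desmosomal cadherin, 1 point per array, day 0 open and day 4 filled, with shapes for replicates 1 to 3. Krt15, Krt1, Krt10, Krt77, Flg, Lor, Hrnr, Ivl, Dsg1a, Lce1c and Lce1m lie lower at day 4, while stress keratins, Tgm1, Lce3 and Sprr2 genes lie higher.

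Protease inhibitors of the epidermis also split. Of 12 stefin A and clade B serpin genes 4 were called higher and 2 lower, with a median of 1.21. Stfa2l1 rose by 4.61, Serpinb3a by 3.87, Serpinb6b by 2.87 and Stfa3 by 2.53. Serpinb7 fell by 3.93, from 10.56, 10.55 and 10.38 to 4.93, 7.59 and 7.19, and by 3.11 without day 4 replicate 1. Serpinb12 fell by 2.35. Stefin A and Serpinb3 genes are near-identical copies, and which copy a probe set reads is uncertain.

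Ligands of the EGF receptor changed in opposite directions. Heparin-binding EGF, Hbegf, rose by 3.39, from 7.5, 7.16 and 7.51 to 10.70, 10.95 and 10.68, Tgfa by 2.58, amphiregulin, Areg, by 2.13 and Epgn by 1.60. Epiregulin, Ereg, fell by 2.81, from 9.44, 8.78 and 9.16 to 5.78, 6.59 and 6.57 (adjusted p = 9.7e-07), and betacellulin, Btc, fell by 2.64. The receptors Erbb3 and Erbb2 fell by 1.26 and 0.49, and Egfr differed by -0.17 (adjusted p = 0.48). Epgn missed the threshold without day 4 replicate 1 (1.36, adjusted p = 0.06), and the fall of Btc was then 1.94.

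Enzymes of the prostaglandin, lipoxygenase and polyamine pathways gave 8 called higher and 2 lower of 23, with a median of 0.84. The inducible cyclooxygenase Ptgs2 rose from 6.30, 5.86 and 6.11 to 10.98, 10.36 and 9.75 (4.28 ± 0.49, adjusted p = 1.8e-07), and its downstream synthase Ptges rose by 2.15. The constitutive cyclooxygenase Ptgs1 fell by 1.68 and the prostaglandin-degrading enzyme Hpgd by 1.40. Of the lipoxygenases, Alox8 rose by 4.88 and Alox12e fell by 4.02, from 10.43, 10.84 and 10.65 to 5.47, 7.12 and 7.29. The phospholipases Pla2g4b and Pla2g4e rose by 4.66 and 2.57, and the arginases Arg2 and Arg1 by 3.50 and 2.23. Odc1, the TPA-inducible first enzyme of polyamine synthesis, rose by 1.13. Without day 4 replicate 1 the counts were 9 higher and 1 lower.

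Over all genes tested 19.8% rose by the test alone and 2.5% were called higher at day 4. In a list of 38 cell cycle and replication genes 12 rose, none fell, and 2 were called, with a median of 0.45. Those called license replication origins: Cdc6 read 5.20, 5.08 and 5.44 and then 7.16, 6.56 and 6.92 (1.64 ± 0.26), and Mcm5 rose by 1.59. Genes of mitosis did not pass the test, such as Ccnb1 (-0.13, adjusted p = 0.80), Plk1 (0.09, 0.86) and Top2a (0.09, 0.85), and Mki67 overlapped between days at 9.97, 9.46 and 9.97 against 9.5, 8.89 and 9.23 (-0.59, adjusted p = 0.16). Neither Cdc6 nor Mcm5 was called without day 4 replicate 1 or without day 0 replicate 2, and 1 of them was called without day 4 replicate 3.

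Of 18 matrix proteases and inhibitors 8 were called higher and 1 lower, with a median of 1.52. Mmp13 (chr9:7272514-7283333) read 4.39, 4.31 and 5.45 at day 0 and 11.67, 11.81 and 11.69 at day 4 (7.0 ± 0.45, adjusted p = 3.0e-11). The gelatinase Mmp9 rose by 4.12, stromelysin, Mmp3, by 3.56, Mmp10 by 3.06 and the urokinase receptor Plaur by 2.56. The inhibitor Timp1 rose by 5.49, from 7.58, 7.34 and 7.57 to 12.71, 13.10 and 13.14, while Timp3 fell by 2.46 and Timp2 by 1.48. The number called lower was 2 without day 4 replicates 1 or 3 or day 0 replicates 1 or 2, and the median was 1.29 without day 0 replicate 3.

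Of 29 collagens and dermal matrix genes 13 fell and 7 rose by the test alone, 2 were called lower and 3 higher, and the median was -0.27. Over all genes tested 23.5% fell and 19.8% rose by the test alone. The share of this list that rose was thus near that of all genes. Tenascin C, Tnc, rose from 7.11, 6.50 and 7.33 to 12.85, 12.18 and 12.42 (5.5 ± 0.42, adjusted p = 4.6e-10), osteopontin, Spp1, by 3.04 and Col12a1 by 2.02. Fibromodulin, Fmod, fell by 2.98, and Col17a1, the hemidesmosomal collagen of basal keratinocytes, by 1.93. The dimmer Fmod probe sets gave -1.87 to -1.22, and most of them were not called. The fibrillar genes Col1a1 and Col1a2 fell by 1.52 and 0.78, and Dcn differed by -0.06 (adjusted p = 0.60). Without day 0 replicate 3, which had the lowest Col1a1 of day 0 at 11.99 against 12.93 and 13.10, 4 were called lower.

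Of 19 endothelial genes 12 rose and 1 fell, with a median of 0.67. Only the leukocyte-binding selectin Sele was called (1.63 ± 0.29, adjusted p = 6.8e-05), with Selp at 1.53, Angpt2 at 1.5, Icam2 at 1.29, Vcam1 at 1.02 and Pecam1 at 0.92. Vwf fell by 1.26. These changes lie close to the fold threshold, and the number called was 0 higher and 1 lower without day 4 replicate 1, 0 without day 0 replicate 2, and 2 higher without day 4 replicates 2 or 3 or day 0 replicate 1. Of 11 lymphatic genes the podoplanin gene Pdpn rose by 2.39, from 9.63, 9.75 and 9.75 to 11.96, 12.16 and 12.18. Mmrn1 and Reln fell by 2.45 and 2.63, and the lymphatic markers Lyve1 (0.39, adjusted p = 0.64), Prox1 (-0.25, 0.40) and Flt4 (0.05, 0.86) did not pass the test. Pdpn is also expressed by activated keratinocytes and fibroblasts.

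Of 17 sebaceous genes 6 were called lower and 1 higher, with a median of -0.61. Far2, which makes wax alcohols, read 12.14, 11.67 and 11.88 at day 0 and 6.35, 7.30 and 7.25 at day 4 (-4.93 ± 0.66, adjusted p = 1.9e-06). Scd3 and Fa2h fell by 4.88 and 4.8, Cidea by 3.36, Elovl3 by 3.13 and Acsbg1 by 2.61. Scd1 was bright throughout and overlapped between the days (-0.21, adjusted p = 0.56), and Pparg differed by 0.21 (0.54). Mogat2, a diacylglycerol synthesis enzyme, rose by 1.79, and was not called without day 4 replicate 3. In the list of 28 cholesterol and fatty acid synthesis genes 17 fell and 4 rose, with a median of -0.58. In all 3 were called lower, among them the fatty acid elongases Elovl6 and Elovl5, at -4.23 and -2.26. Elovl6 went from 12.76, 12.67 and 12.70 to 8.42, 8.45 and 8.57, with all 3 mice alike.

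Of 17 adipocyte genes 7 fell and none rose, and 3 were called lower, with a median of -0.36. Over all genes tested 23.5% fell by the test alone and 2.75% were called lower. Thrsp, a regulator of lipid synthesis, fell by 3.79, Pck1 by 1.95 and Acvr1c by 1.76, while the adipocyte-defining Adipoq (-0.28, adjusted p = 0.32) and Fabp4 (-0.01, 0.94) did not pass the test. Adipoq read 12.85 in day 4 replicate 1 and 13.86 and 13.66 in the other day 4 mice, and without that replicate it differed by 0.03 and only 1 gene of the list was called. All 25 skeletal muscle genes fell and 10 were called lower, with a median of -1.24. Myh4 read 12.60, 13.09 and 12.81 and then 11.79, 10.01 and 10.65 (-2.02 ± 0.43), Neb fell by 2.04, Pygm by 1.96 and Ryr1 by 1.95. The list's median level against day 0 was -0.99, -1.44 and -1.46 in the 3 day 4 mice.

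Hair, pigment and clock genes completed the lists. Of 26 hair keratin and root sheath genes 2 rose and none fell, and only Krt75, a companion-layer keratin, was called (2.63 ± 0.57, adjusted p = 0.00066), with a list median of 0.13. Of 26 hair cycle genes 11 fell and 2 rose, while over all genes tested 23.5% fell and 19.8% rose by the test alone. The hair stem cell transcription factor Lhx2 fell by 2.92, from 7.68, 7.69 and 7.78 to 5.05, 4.52 and 4.84, Fgf18 by 2.20 and the Wnt co-receptor Lgr5 by 1.81, while the dermal growth factor Fgf7 rose by 1.70. Melanocyte genes gave 4 falls of 11, of which Gpnmb (-1.82) and Dct (-1.65) were called, and Tyr differed by -0.09 (adjusted p = 0.92). The call of 1 of these was lost without day 4 replicate 3 or day 0 replicate 1. Of 19 clock genes Arntl, which encodes the core activator BMAL1, fell by 1.88 (adjusted p = 6.4e-10), from 8.87, 8.74 and 8.85 to 6.83, 7.04 and 6.96, and Rora fell by 1.83, while Bhlhe40, Nfil3 and Dbp rose by 1.23, 1.22 and 1.15. A dimmer Rora probe set rose by 0.34 (adjusted p = 0.018), while the rest fell or did not pass the test. Per1, Per2 and Per3 differed by -0.05 to 0.16, and none passed the test.

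In the list of 25 antioxidant, hypoxia and glycolysis genes 14 rose and 5 fell, with 5 called higher and 1 lower. The share that fell was near the 23.5% of all genes tested. The metallothioneins Mt1 and Mt2 rose by 2.71 and 2.56 and heme oxygenase, Hmox1, by 2.38, while Mt4 fell by 6.43, from 10.54, 10.70 and 10.27 to 4.35, 4.09 and 3.77. The glutathione transferase Gsta4 rose by 2.98 and the mitochondrial dismutase Sod2 by 1.80. Nqo1, a target of the oxidative stress factor NRF2, fell by 0.41.

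**Figure D3:**
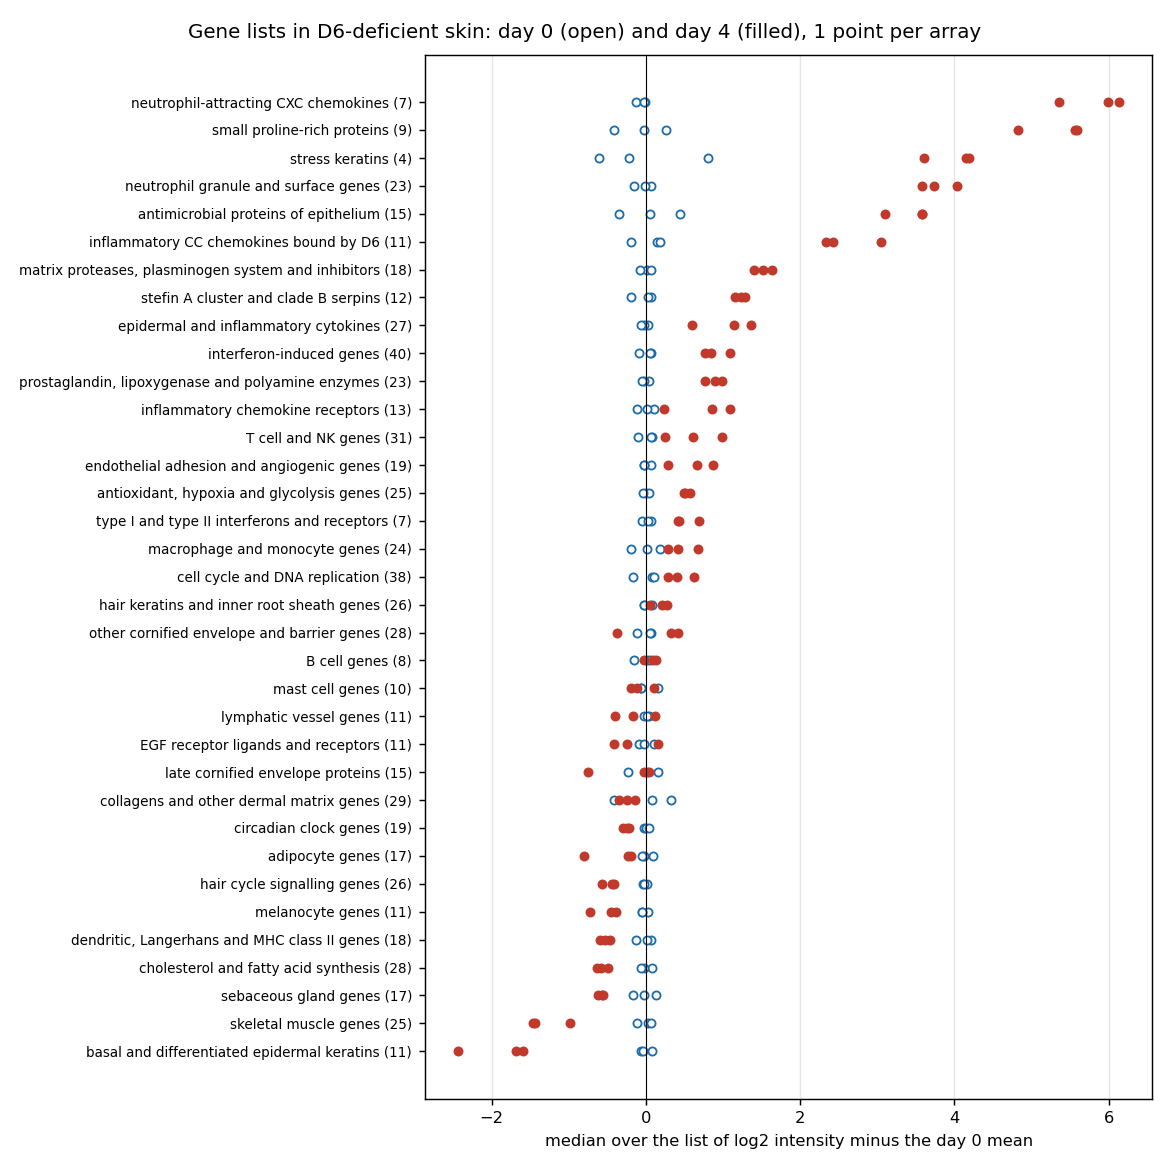
Median over each of 35 gene lists (number of genes in brackets) of log2 intensity minus the day 0 mean, 1 point per array, day 0 open and day 4 filled. The neutrophil-attracting CXC chemokine list lies at 5.36 to 6.14 at day 4 and small proline-rich proteins at 4.83 to 5.59. Basal and differentiated keratins lie at -2.44 to -1.60 and skeletal muscle genes at -1.46 to -0.99.

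Day 4 was then set between day 2 and day 6 of the same genotype. The comparisons share the day 4 arrays, and the day 1, 2 and 6 changes given here share the day 0 arrays with the main comparison, so that values stand side by side. Against day 2, 124 genes were called higher (0.698%) and 210 lower (1.18%) at day 4. Against day 4, 412 genes were called higher (2.32%) and 358 lower (2.01%) at day 6. By their hybridisation controls the day 6 arrays all lay in the brighter set, and day 4 replicates 2 and 3 in the dimmer. The part of this in the day 6 differences was not tested. The median SD between replicates was 0.2 at day 6 and 0.167 at day 4.

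Some of the neutrophil chemokines were later than others. Cxcl5 had changed by 0.13 at day 1, 4.19 at day 2, 8.75 at day 4 and 0.32 at day 6, and was 4.56 higher at day 4 than at day 2 (adjusted p = 6.7e-09). Ppbp, Csf3 and Il6 were also higher at day 4 than at day 2, by 4.8, 4.71 and 4.10. Cxcl2 and Cxcl3 had changed by 7.40 and 6.16 at day 2, and their differences between days 4 and 2, -1.51 (adjusted p = 0.13) and 0.84 (0.33), did not pass the test. Ccl22 and Ccr7 were 3.49 and 3.28 higher at day 4 than at day 2. By day 6 the CXC list had a median change of 0.32 from day 0, and 6 of its 7 genes were called lower than at day 4.

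Neutrophil genes had a median change of 0.60, 3.39, 4.03 and 0.32 on days 1, 2, 4 and 6, and 16 of 23 were called lower at day 6 than at day 4. Against day 2, 1 of them was called higher and 2 lower at day 4. The list's medians per array overlapped between days 2 and 4. Interferon-induced genes were highest earlier, with medians of 0.19, 1.73, 0.92 and -0.28. At day 4, 11 of the 40 were called lower than at day 2 and 1, Cxcl9, higher (2.61, adjusted p = 6.0e-05). Irf7 was 1.83 lower and Ifit1 1.74 lower at day 4 than at day 2, as the changes from day 0 of 2.88 and 2.89 at day 2 and of 1.05 and 1.15 at day 4 show.

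The fall of epidermal differentiation genes was centred on day 4. Krt10 had changed by 0.08 at day 1, -0.33 at day 2, -5.52 at day 4 and -0.07 at day 6, and Krt1 by 1.05, 0.65, -4.46 and 0.67. Flg was above day 0 on days 1, 2 and 6 (1.73, 0.95 and 0.98) and 5.34 lower at day 4 than at day 2 (adjusted p = 7.7e-08). Krt77 was already at -7.22 on day 2. Small proline-rich genes had medians of 3.28, 4.37, 5.26 and 2.24 and stress keratins of 3.76, 4.37, 3.98 and 2.56, both above day 0 at day 1 and still above it at day 6.

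Cell cycle genes had medians of 1.5, 1.30, 0.45 and 1.48, so that day 4 was the lowest of the treated days. Mki67 was 1.33 lower at day 4 than at day 2 (adjusted p = 0.0063) and 1.80 higher at day 6 than at day 4 (adjusted p = 0.00018). Hair keratins had medians of 1.62, 0.01, 0.13 and 4.45, with 23 of 26 called higher at day 6 than at day 4, and melanocyte genes of 2.44, 0.27, -0.47 and 2.93, with 8 of 11 called higher at day 6. The day 6 hair keratin medians ranged widely between its 3 mice. Skeletal muscle genes were lower on all treated days, at -2.22, -1.82, -1.24 and -2.10.

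**Figure D4:**
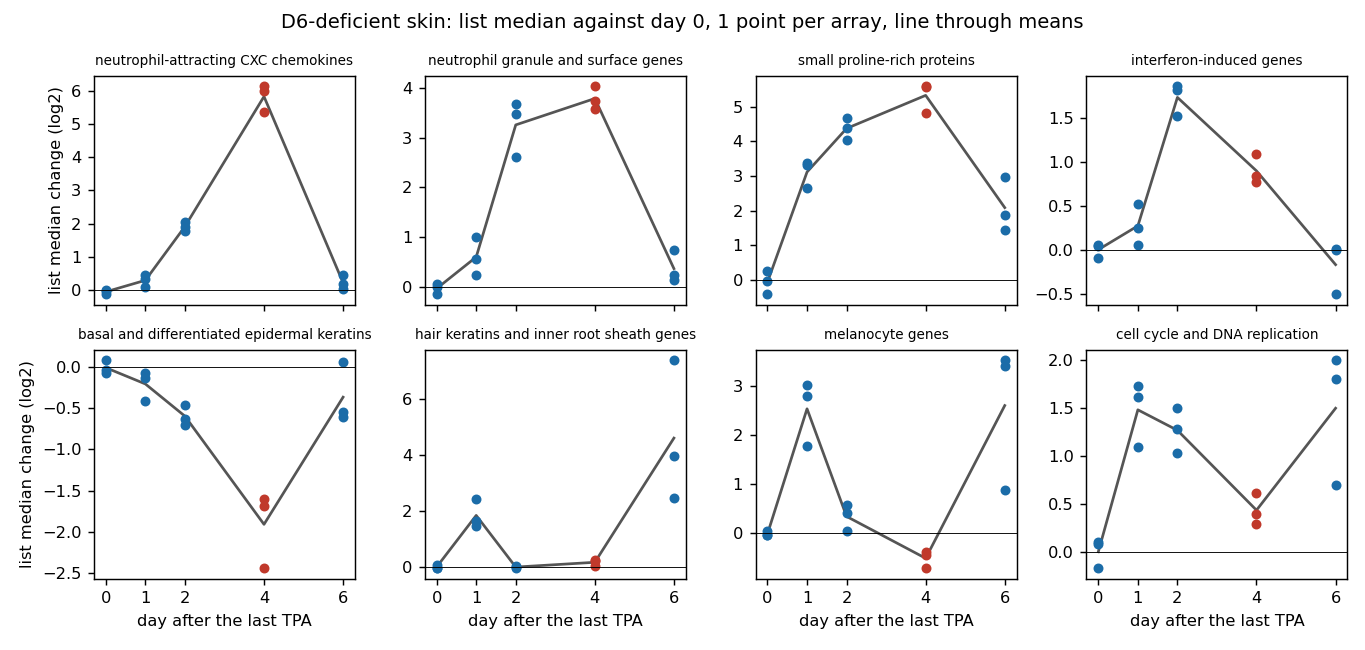
Median change from the day 0 mean of 8 gene lists in D6-deficient skin by day after the last TPA application (log2), 1 point per array, day 4 in red, with a line through the daily means. Neutrophil-attracting CXC chemokines and small proline-rich proteins are highest at day 4, interferon-induced genes at day 2, and basal and differentiated keratins are lowest at day 4. Neutrophil genes have their highest mean at day 4, with points that overlap those of day 2.

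To ask what belonged to the D6-deficient genotype, the change from day 0 to day 4 was compared with that of WT mice given the same TPA, as a difference of differences over 12 arrays. In WT skin 425 genes were called higher (2.39%) and 337 lower (1.9%) at day 4. Several of the largest changes had a counterpart in WT skin, where Cxcl5 changed by 8.44, Mmp13 by 7.17, Il6 by 6.32 and Cyp2e1 by -6.14. Medians in WT skin were 5.08 for neutrophil-attracting CXC chemokines, 3.06 for D6-bound CC chemokines, 3.61 for neutrophil genes and 0.66 for T-cell genes. Among other lists the WT median was higher for small proline-rich proteins (7.36, against 5.26 in D6-deficient skin) and stress keratins (6.12, 3.98). It was also higher for antimicrobial proteins (5.05, 3.48) and cell cycle genes (1.11, 0.45), and lower for interferon-induced genes (0.43, 0.92). These are changes from day 0, where the genotypes differed. In that order, D6-deficient minus WT medians at day 0 were 1.12, 1.81, 0.56, 0.46 and -0.22. At day 4 they were 0.28, -0.33, 0.09, -0.21 and 0.36. Without D6-deficient day 0 replicate 3 the day 0 differences of Defb3, S100a8 and Sprr2h went from 2.99, 2.41 and 2.1 to 2.30, 1.71 and 1.76. By its brightest probe set no gene of the lists of neutrophil-attracting CXC chemokines, D6-bound CC chemokines, neutrophil genes or T-cell genes passed the test of the difference between genotypes, which does not show that the genotypes acted alike. The same held for the small proline-rich, stress keratin, antimicrobial, cell cycle and interferon-induced lists.

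The difference itself was called for 34 genes (0.191%), 10 with a larger rise or smaller fall in D6-deficient skin and 24 with the reverse, and 20 of them were also called in D6-deficient skin at day 4. Tslp, the cytokine through which keratinocytes act on dendritic cells and type 2 lymphocytes, read 6.25, 6.24 and 6.96 at day 0 and 8.72, 9.87 and 9.42 at day 4 in D6-deficient skin. In WT skin it read 7.30, 8.32 and 7.49 and then 7.44, 8.36 and 8.54. The D6-deficient mice thus began lower and ended higher, and the changes differed by 2.44 ± 0.43 (adjusted p = 0.0098). At day 4 alone the genotypes differed by 1.22 (adjusted p = 0.068) and at day 0 by -1.22 (0.04). Csf3 rose in both genotypes and 1.81 more in D6-deficient skin (adjusted p = 0.021), and 1.73 more without D6-deficient day 0 replicate 3 (0.067), with 9.24 to 9.81 at day 4 against 6.92 to 8.21 in WT mice. At day 0 it was 3.53 to 3.85 in both. Of the 27 cytokines, Tslp and Csf3 were the 2 called in this direction, and 1 was called in the reverse. The probe sets of Cxcl9, which is in the interferon list, disagreed: the change was 2.42 larger in D6-deficient skin by 1 (adjusted p = 0.017), while the brightest gave 1.03 (0.55).

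Several epidermal genes had the reverse difference. Krt5 fell by 1.15 in D6-deficient skin and differed by 0.22 (adjusted p = 0.23) in WT skin, where it read 12.26, 12.22 and 12.07 and then 12.38, 12.57 and 12.24. The changes differed by -1.36 ± 0.19 (adjusted p = 0.0018). Krt14 rose by 1.10 in WT skin and did not pass the test in D6-deficient skin, a difference of -1.23 ± 0.22 (adjusted p = 0.012). For both, D6-deficient mice were higher at day 0, by 0.70 (adjusted p = 0.0099) and 0.73 (0.017). Flg fell by 4.39 and by 1.30 in WT skin (difference -3.08 ± 0.72, adjusted p = 0.046), and Hrnr fell by 2.42 against 0.06 in WT skin (-2.48, 0.026). Dsg1a, Col17a1, Lce1c and Them5 gave differences of -1.57, -1.26, -1.47 and -2.42, and Ereg, which fell by 2.81 against -0.25 (adjusted p = 0.61) in WT skin, of -2.56. Of these, Krt5, Krt14, Dsg1a, Col17a1 and Lce1c passed the test with differences under 3-fold and so were not called. Ereg too was higher in D6-deficient skin at day 0, by 1.38 (adjusted p = 0.048), or 1.36 (0.14) without D6-deficient day 0 replicate 3. Among the 28 envelope and barrier genes 4 were called in this direction (Flg, Hrnr, Casp14 and Asprv1) and none in the other. The fall of Krt10 (-5.52, and -4.27 in WT skin) did not pass the test of the difference (-1.25, adjusted p = 0.44), nor did that of Krt1 (-1.93, 0.23) or Lor (-2.02, 0.19).

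For other genes the difference lay at day 0. Stfa3 read 10.82, 10.13 and 12.10 in D6-deficient and 9.81, 7.72 and 7.97 in WT skin at day 0 (2.52, adjusted p = 0.0017) and was level at day 4 (0.12, 0.97). C130079G13Rik was 1.95 higher at day 0 (adjusted p = 1.5e-05) and differed by -0.04 at day 4 (0.98). Krt16 and Krt6b were also higher in D6-deficient skin at day 0, by 2.48 (adjusted p = 0.018) and 3.51 (0.024), and their rises were smaller by 2.81 (0.094) and 3.74 (0.13), which did not pass the test. Without D6-deficient day 0 replicate 3, an alternative chosen after seeing the data, the day 0 differences of Krt16 and Krt6b were 2.03 (adjusted p = 0.12) and 2.54 (0.15) and that of Krt14 was 0.68 (0.085), which missed the threshold, while those of Stfa3 (1.98, 0.016), C130079G13Rik (1.90, 0.00027) and Krt5 (0.69, 0.047) passed. The difference between the changes of Stfa3 was -1.86 (adjusted p = 0.14) without that array.

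**Figure D5:**
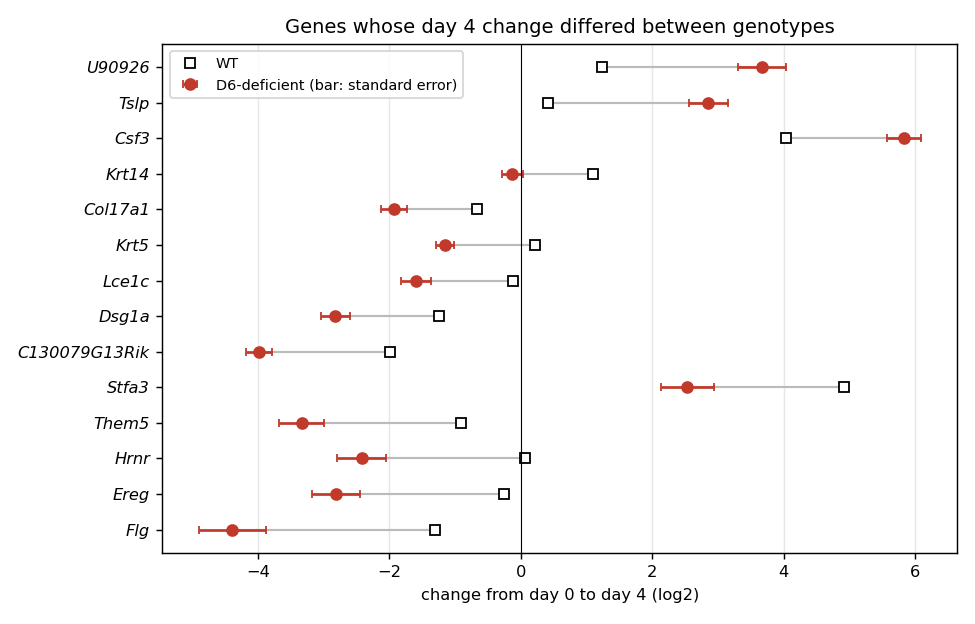
Change from day 0 to day 4 (log2) in WT (open squares) and D6-deficient skin (red points, bars are standard errors) for 14 named genes whose changes passed the test of the difference. Tslp, Csf3 and U90926 lie further right in D6-deficient skin and the other 11 further left, Flg the farthest with -4.39 against -1.30.

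These genotype differences rested on few arrays. Over probe sets, 18 differences were called higher (0.05%) and 37 lower (0.103%), 3949 had an unadjusted p under 0.05, and the counts were 5 and 8 without WT day 4 replicate 2, 6 and 9 without D6-deficient day 0 replicate 3, and 10 and 4 without both arrays that stood apart. Krt5, C130079G13Rik, Krt14 and Tslp kept an adjusted p under 0.05 whichever of the 12 arrays was left out, and the other 10 genes shown did not. Of those 4, Tslp missed it with only the arrays of the contrast in the fit (2.44, adjusted p = 0.068) and Krt14 without both arrays that stood apart (-1.0, 0.076), and after Benjamini-Hochberg adjustment of the methods' t-test only Stfa3 of the 14 passed (0.046).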

How the data were processed

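RNA from whole back skin was hybridised to Affymetrix Mouse430_2 arrays, 1 array per mouse, and the labels name replicates as separate mice. The deposited values are probe set intensities on a linear scale, which the authors had background-corrected, quantile-normalised and summarised by RMA. A second deposited table held a sample sheet and was not used. Log2 was taken here. The 20% of probe sets with the lowest mean and the control probe sets were left out, which left 36029. Linear models over the 30 arrays, whose coefficients were the 10 group means, were run in limma 3.58.1 (R 4.3.3), and p-values were adjusted by Benjamini-Hochberg over all probe sets. A gene was represented by its brightest tested probe set with a single symbol. Dimmer probe sets of some genes called here were not called, as for Timp3, Gpnmb, Pck1, Thrsp, Serpinb12 and Lgr5. Probe sets with several symbols were not named. Coordinates and promoters came from RefSeq (GRCm38.p6), matched by Entrez identifier for 16221 of 17772 genes. The number of arrays limits the precision.

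The members and gene lists were chosen with earlier results of these data known. Named were the 15 largest rises and falls among called genes without overlap, up to 4 called members of each list in each direction (the 2 with the smallest adjusted p where fewer than 2 were called), 33 defining genes whatever their change, and the 8 largest genotype differences among genes called in both comparisons. Other list members were named after their values were seen, to show the range of a list. Some genes are not reported here. The fits were tested on simulated data. Alternatives were other fold thresholds and filters, the contrast's arrays alone, array weights, centring, the mean of a gene's probe sets, a replicate block, the hybridisation control set as a covariate, each array left out, and the methods' t-test.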

Additional observations from a re-analysis of the deposited data

Results flagged for a closer look

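For 14 named genes the change from day 0 to day 4 differed between D6-deficient and WT skin by the test of the difference itself (limma, adjusted p under 0.05). The difference, as D6-deficient change minus WT change on the log2 scale, was 2.44 for Tslp, 2.44 for U90926, a transcript of unassigned function, and 1.81 for Csf3. Among keratins and adhesion genes it was -1.36 for Krt5, -1.23 for Krt14, -1.57 for Dsg1a and -1.26 for Col17a1. Among envelope genes it was -3.08 for Flg, -2.48 for Hrnr and -1.47 for Lce1c. It was -2.56 for the EGF receptor ligand Ereg, -2.40 for Stfa3, -2.42 for Them5 and -2.0 for C130079G13Rik.

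For Stfa3 and C130079G13Rik the genotypes differed at day 0 (2.52 and 1.95, adjusted p = 0.0017 and 1.5e-05), and the differences at day 4 were 0.12 and -0.04. The genotypes also differed at day 0 for Krt5, Krt14, Ereg and Tslp (0.70, 0.73, 1.38 and -1.22, adjusted p = 0.0099, 0.017, 0.048 and 0.04). For Csf3 and U90926 they differed at day 4, by 1.82 and 2.15 (adjusted p = 0.0005 and 0.0031). U90926 read 5.0, 5.13 and 4.70 at day 0 and 8.50, 8.30 and 9.05 at day 4 in D6-deficient skin, and 5.63, 5.10 and 4.96 and then 6.75, 5.59 and 7.07 in WT skin.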

How the results depend on the processing

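Over probe sets, 711 were called higher and 734 lower at day 4. With a 2-fold threshold the counts were 1789 and 2224, and with no fold threshold 6767 and 8055. Leaving out 1 array at a time gave 674 to 806 higher and 691 to 783 lower. The replicate numbers did not pair the samples (same-number correlations of -0.08, -0.15 and -0.04), and with the replicate block the counts were 711 and 735. Of the 169 named genes 160 passed the test, and 14 of these missed it under at least 1 alternative.

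The genotype difference was less stable. Its counts of 18 higher and 37 lower became 52 and 119 with a 2-fold threshold, 69 and 150 with none, 41 and 56 with array weights, 10 higher with the contrast's arrays alone, and 10 and 4 without both arrays that stood apart, an alternative chosen after seeing the data. Leaving out 1 array gave 5 to 25 higher and 8 to 62 lower. With the replicate block they were 17 and 30, and Col17a1, Flg and Stfa3 missed the threshold (adjusted p = 0.052, 0.061 and 0.058). The methods' t-test, on day 4 arrays less each genotype's day 0 median and so without the day 0 spread, called 56 and 113 unadjusted, and 0 and 5 after Benjamini-Hochberg.

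Genes with small differences changed sign. Leaving out 1 array gave -0.48 to 0.03 for Adipoq, -0.26 to 0.00 for Cd3e and -0.28 to 0.05 for Krt14, the highest without day 4 replicate 1, and leaving out both arrays gave 0.01, 0.07 and 0.09. Cd3e was 0.07 with array weights. Ifnb1 ranged from -0.03 (without day 4 replicate 3) to 0.04, and was -0.01 without day 0 replicate 1. Ccbp2 was 0.12 as the mean of its probe sets.

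List medians moved as follows. With the lowest 40% left out they were 0.78 for interferons and receptors, -0.32 for B-cell genes (a change of sign) and -0.74 for hair cycle genes. With the mean of probe sets they were 0.25 for EGF ligands and receptors and 0.12 for lymphatic genes, both with a change of sign, -0.50 for dendritic, -0.42 for cholesterol and fatty acid, -0.30 for hair cycle, -0.20 for melanocyte, -0.13 for clock and 0.50 for antioxidant genes. Centring, which shifted the median of all genes by 0.074, gave -0.14 for clock and 0.64 for antioxidant genes. Without both arrays they were 1.25 for cytokines, -0.44 for dendritic genes, 1.23 for matrix proteases and -0.13 for clock genes. Leaving out 1 array gave 0.71 to 1.29 for cytokines, 0.77 to 1.02 for prostaglandin enzymes, 3.63 to 4.19 for neutrophil genes, -0.69 to -0.49 for dendritic genes, 1.29 to 1.63 for matrix proteases and -0.24 to -0.08 for clock genes (the highest without day 0 replicate 3). Smaller moves were -0.09 to 0.37 for envelope and barrier genes, which changed sign without day 4 replicate 1 (0.37) or day 0 replicate 1 (0.01), and -0.39 to 0.01 for late cornified envelope genes, -0.33 to -0.04 for EGF ligands and receptors and -0.48 to -0.19 for adipocyte genes, all with an extreme without day 4 replicate 1. They were -0.46 to -0.20 for collagens (lowest without day 0 replicate 3), -0.30 to -0.09 for lymphatic genes (highest without day 4 replicate 2), 0.34 to 0.68 for macrophage genes (highest without day 0 replicate 2) and -0.57 to -0.31 for melanocyte genes (highest without day 0 replicate 1), and also 0.01 to 0.08 for B-cell, 0.08 to 0.20 for hair keratin and -0.16 to -0.01 for mast cell genes. Causes of these shifts were not tested. The authors' normalised table could not be tried, since the table used here holds only a sample sheet.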
